A study of Mesocricetus auratus with 6 samples.

Results

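Glutathione is the main small thiol of animal cells. It is built from glutamate, cysteine and glycine by glutamate-cysteine ligase and then glutathione synthetase, it is spent by peroxidases and transferases, and its oxidised form is brought back by glutathione reductase with NADPH. In the cytosol it is taken apart by the ChaC enzymes, which release cysteinylglycine and leave pyroglutamate. The genes described here were chosen by function, as a list of 10 for the synthesis, breakdown, recycling and use of glutathione: Chac1, Chac2, Gclc, Gclm, Gss, Gsr, Gpx1, Gpx4, Ggct and Gsto1. The list was put together with measured values in view, because Chac2 lay higher in the STYK1/NOK libraries of these same data. Of the 10, 9 were matched by symbol among the 16078 gene IDs of each library, and Gsto1 was not matched and is not analysed here. All 9 passed the filter on low values, which asked that either group average 1 FPKM or more, as did 11464 genes in all.

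The cells were BHK21, an established fibroblast-like line of the golden hamster, which the labels give as kidney of age 1 day. One group of 3 libraries came from cells transfected with STYK1/NOK, whose product spans the membrane and resembles receptor kinases, and which the series names an oncogene (STYK1 1 to 3). The other 3 came from cells given pCMV-Myc, the empty expression plasmid (vector 1 to 3). Total RNA was taken at 48 after transfection, a time to which the labels attach no unit. The labels name no clone, no share of transfected cells and no separate cultures, so each p-value below is set by the spread among these libraries, which may be technical. A lower level per library can come from fewer cells that express a gene or from less RNA per cell, and bulk RNA does not separate the alternatives.

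Levels are in FPKM, fragment counts per transcript length and sequencing depth, and were listed above 0 for 14119 to 14339 genes a library. Relative depth, estimated from the most frequent ratio between low FPKM values of a library and of STYK1 1, was 0.979 to 1.03 of that of STYK1 1. FPKM are already divided by depth, so this does not show that the numbers of reads were alike. The sum of FPKM was 619840, 554681 and 557946 in vector 1, 2 and 3. It was 528160, 530277 and 542638 in STYK1 1, 2 and 3, so the sums of the groups did not overlap. Vector 1 stood apart from the rest: it correlated with the others at a Pearson r of 0.963 to 0.976 across genes, against 0.988 to 0.993 among the rest, and 37.2% of the tested genes had their highest value there and 36.5% their lowest. The 9 glutathione genes are therefore given with and without it, and for other genes named with a difference the value without it is given where it turns sign or moves by over 1.5 times. Where 3 values are given for a group, they follow the library numbers 1, 2 and 3. Hamster Styk1 itself was listed at 1.5 to 1.89 FPKM in vector and 2.04 to 2.46 FPKM in STYK1 libraries, and it did not pass the test (limma-trend, adjusted p = 0.470). Of the fibroblast markers, Vim lay at 3650 to 4141 FPKM and Fn1 and Pdgfrb were present, while Col1a1, Col1a2, Col3a1 and Thy1 reached at most 1.02 FPKM in any library. The 6 matched markers of kidney epithelium summed to at most 1.47 FPKM in any library. Of the leukocyte markers, Ptprc reached at most 0.16 FPKM, whereas Cd68 lay at 279 to 351 FPKM.

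The family spanned a wide range of levels in these cells. The peroxidases were the most abundant, then the modifier subunit of glutamate-cysteine ligase, then glutathione reductase and the catalytic subunit of the ligase, and last glutathione synthetase and the 3 breakdown enzymes. Over all 6 libraries the mean was 576 FPKM for Gpx1, 284 FPKM for Gpx4 and 85.7 FPKM for Gclm. Gsr averaged 36.8 FPKM and Gclc 35.1 FPKM. Gss averaged 13.98 FPKM, Chac1 10.4 FPKM, Chac2 9.89 FPKM and Ggct 7.13 FPKM. Gpx1, Gpx4 and Gclm each had a range over the 6 libraries that lay wholly above that of the next gene. Gsr and Gclc overlapped in range, and so did each neighbouring pair among Gss, Chac1, Chac2 and Ggct, so their order is not set beyond their spread.

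**Figure D1:**
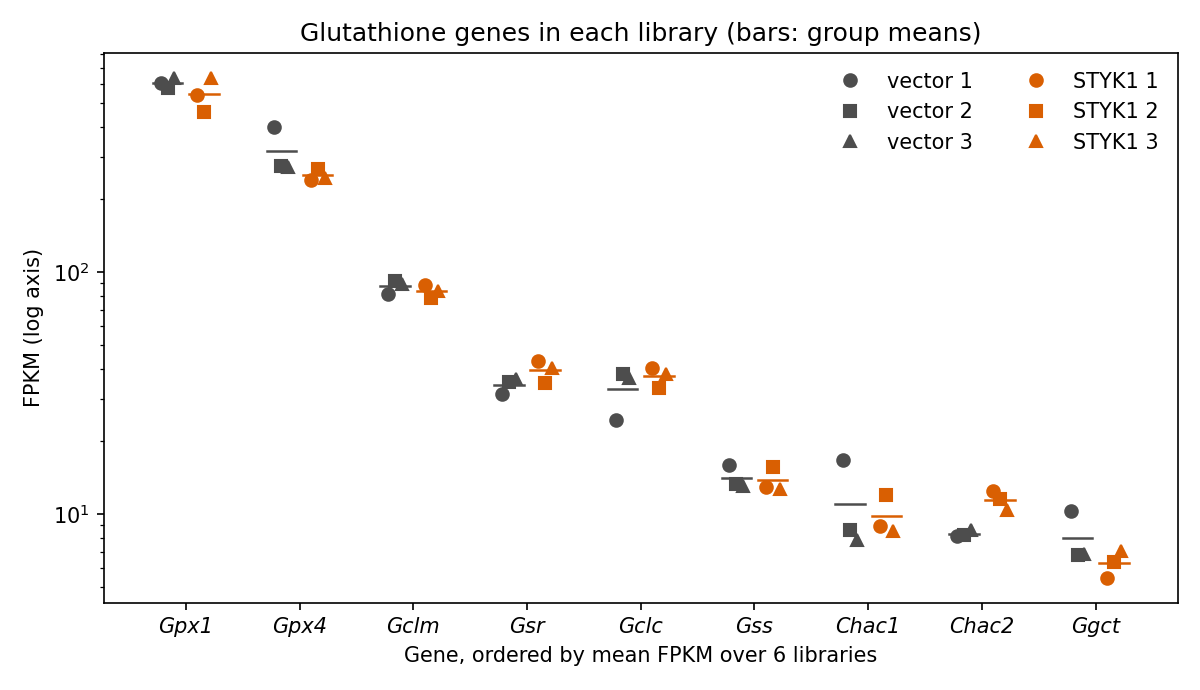
FPKM of the 9 matched glutathione genes (log axis) in each library, with vector libraries in grey and STYK1 libraries in orange, symbols for library numbers and short bars for group means. Chac2 is the gene whose 3 orange points all lie above the grey ones, and vector 1 (grey circle) is far from vector 2 and 3 for Chac1, Ggct, Gpx4 and Gclc.

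The first question was how the enzymes that break glutathione down were expressed with STYK1/NOK and with the empty vector. No gene of the whole table passed the test between the groups (limma-trend, 0 of 11464 genes at a Benjamini-Hochberg adjusted p under 0.05, a background of 0%; 1128 genes at an unadjusted p under 0.05). With library weights the same test called 24 genes, of which 0 were among the 9. The differences of the 9 genes are therefore given as values and none is called a change. Because the list was proposed from this contrast, no p is given for them.

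Chac2 (Gene ID 101835141), the ChaC enzyme with low and steady activity towards glutathione, was the value that led to the list. It was listed at 8.15, 8.18 and 8.58 FPKM with the empty vector and at 12.4, 11.55 and 10.4 FPKM with STYK1/NOK. All 3 STYK1 libraries lay above all 3 vector libraries, and the vector libraries lay close together, vector 1 included. The means were 8.30 ± 0.240 FPKM and 11.5 ± 0.997 FPKM (SD, n = 3 each), a ratio of 1.38, and 1.37 without vector 1. On the log2(FPKM + 1) scale, which understates the change of genes with low FPKM, the difference was 0.42 ± 0.11 (SE), and it was 0.41 ± 0.10 (SE) without vector 1. Groups that do not overlap in the direction of STYK1 were found for 13.6% of all tested genes, so Chac2 was 1 of 1564 such genes. Without vector 1 the share was 17.9%. Leaving out a library cannot make such groups overlap, so this was no further check of Chac2. With all libraries it was the only one of that direction among the 9. Gsr joined it with equal FPKM sums, where 24.4% of all tested genes had that pattern. Gsr and Gclc joined it when STYK1 2 was left out, where 20.6% of genes had that pattern.

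Chac1 (Gene ID 101825179), the more active ChaC enzyme and a target of the stress factor ATF4, had another pattern. It was listed at 16.8, 8.58 and 7.82 FPKM with the empty vector and at 8.96, 11.99 and 8.51 FPKM with STYK1/NOK. The highest library was vector 1, at 2.05 times the mean of vector 2 and 3, the next was STYK1 2, and the other 4 libraries lay between 7.82 and 8.96 FPKM. The groups overlapped, with means of 11.1 ± 4.96 FPKM with the empty vector and 9.82 ± 1.89 FPKM with STYK1/NOK (SD, n = 3 each). The log2 difference was -0.10 ± 0.26 (SE) and turned to 0.22 ± 0.15 (SE) when vector 1 was left out. No direction can thus be given for Chac1. The level of Chac2 relative to Chac1 was 0.486, 0.953 and 1.10 with the empty vector. With STYK1/NOK the same ratio was 1.39, 0.963 and 1.23, so the groups overlapped.

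Ggct (Gene ID 101841471), gamma-glutamylcyclotransferase, acts on gamma-glutamyl dipeptides rather than on glutathione itself. It was listed at 10.3, 6.76 and 6.87 FPKM with the empty vector and at 5.47, 6.35 and 7.04 FPKM with STYK1/NOK. Vector 1 was the highest library, at 1.51 times the mean of vector 2 and 3, and STYK1 3 lay above vector 2 and 3, so the groups overlapped. The log2 difference of -0.28 ± 0.17 (SE) became -0.11 ± 0.12 (SE) without vector 1.

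The next question concerned synthesis. Gclc (Gene ID 101844822), the catalytic subunit of glutamate-cysteine ligase, was listed at 24.6, 37.9 and 36.7 FPKM with the empty vector and at 40.1, 33.4 and 37.9 FPKM with STYK1/NOK. Vector 1 was the lowest library, at 0.660 times the mean of vector 2 and 3, and the other 5 libraries mixed the groups. The log2 difference was 0.18 ± 0.16 (SE) with all libraries and -0.01 ± 0.09 (SE) without vector 1. Gclm (Gene ID 101822495), the modifier subunit that raises the activity of the ligase, was the steadiest gene of the family. It was listed at 81.7, 91.7 and 89.8 FPKM with the empty vector and at 88.99, 78.15 and 84.1 FPKM with STYK1/NOK, a ratio of highest to lowest of 1.17. Its groups overlapped with all libraries, with a log2 difference of -0.07 ± 0.09 (SE), and did not overlap without vector 1, where it was -0.12 ± 0.07 (SE). Groups with no overlap and lower values in STYK1 were found for 11.9% of genes when vector 1 was left out.

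The modifier subunit outnumbered the catalytic one in every library, on a scale that is per transcript length. Gclm over Gclc was 3.32, 2.42 and 2.45 with the empty vector and 2.22, 2.34 and 2.22 with STYK1/NOK. All 3 STYK1 libraries lay below all 3 vector libraries, which leaving out a library cannot undo. Without vector 1 the gap was narrow: STYK1 2 and vector 2 differed by about the SD of the STYK1 libraries, 0.0720. This ratio was looked at among 5 such ratios and has no test.

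Gss (Gene ID 101843981), glutathione synthetase, was listed at 15.96, 13.4 and 13.1 FPKM with the empty vector and at 12.97, 15.6 and 12.8 FPKM with STYK1/NOK. The 2 highest libraries were vector 1 and STYK1 2, the same pair as for Chac1, and the other 4 libraries lay between 12.8 and 13.4 FPKM. The log2 difference was -0.04 ± 0.12 (SE), and 0.05 ± 0.10 (SE) without vector 1.

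Glutathione reductase, Gsr (Gene ID 101843377), which regenerates the thiol from its disulfide, was listed at 31.3, 35.2 and 36.4 FPKM with the empty vector and at 42.99, 34.9 and 40.2 FPKM with STYK1/NOK. STYK1 1 and 3 lay above all vector libraries and STYK1 2 lay among them. The means were 34.3 ± 2.64 FPKM with the empty vector and 39.4 ± 4.09 FPKM with STYK1/NOK (SD, n = 3 each), a ratio of 1.15, with a log2 difference of 0.19 ± 0.11 (SE) and of 0.13 ± 0.09 (SE) without vector 1. Among the differences above 0, that of Gsr was second to that of Chac2 with all libraries and close to the 0.18 of Gclc. Without vector 1 it also lay below the 0.22 of Chac1.

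The peroxidases use glutathione to reduce peroxides, and both members measured here are selenoproteins. Gpx1 (Gene ID 101831646), which acts on hydrogen peroxide in the cytosol and mitochondria, was listed at 609, 578 and 634 FPKM with the empty vector and at 539.6, 461 and 636 FPKM with STYK1/NOK. STYK1 3 was the highest library of all and STYK1 2 the lowest, so the spread within the STYK1 group was wider than the distance between the means of 607 ± 28.3 FPKM and 546 ± 87.3 FPKM (SD, n = 3 each). The log2 difference was -0.16 ± 0.12 (SE), and again -0.16 ± 0.12 (SE) without vector 1.

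Gpx4 (Gene ID 101837194), which reduces lipid hydroperoxides in membranes and holds back ferroptosis, was listed at 399, 276 and 274 FPKM with the empty vector and at 242, 267 and 245 FPKM with STYK1/NOK. The 3 STYK1 libraries lay below the 3 vector libraries, as they did for 9.44% of all tested genes, and Gpx4 was the 1 gene of the 9 in that direction with all libraries. Gss joined it without STYK1 2 (17.4% of genes), and Ggct and Gpx1 without STYK1 3 (14.1% of genes). For Gpx4 itself STYK1 2 and vector 3 differed by little, and vector 1 lay at 1.45 times the mean of vector 2 and 3. Its means of 316 ± 71.99 FPKM and 251 ± 13.8 FPKM (SD, n = 3 each) gave a log2 difference of -0.31 ± 0.15 (SE), which was -0.13 ± 0.06 (SE) without vector 1. After quantile normalization, and with libraries scaled to equal FPKM sums, the groups overlapped for Gpx4 (the shares of genes lower without overlap were then 9.26% and 3.93%).

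Across the family, 3 of 9 genes had a log2 difference above 0 and the median was -0.07, beside 52.7% of genes above 0 and a median of 0.01 over all tested genes. Without vector 1 there were 4 of 9 above 0 and a median of -0.0098, beside 55.6% above 0 and a median of 0.02 for all genes. Scaling to equal FPKM sums moved the median of all genes to 0.12 and put 70.5% of them above 0. It put 6 of the 9 above 0, with a median of 0.044, which still lay below that of all genes. Chac2, Gsr, Gpx1, Gpx4 and Ggct kept the sign of their difference in all 14 alternative settings, whereas Chac1, Gclc, Gclm and Gss changed it in 3, 1, 2 and 4 of them. For Gpx1 the difference was -0.00040 after quantile normalization, so its sign means little there.

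**Figure D2:**
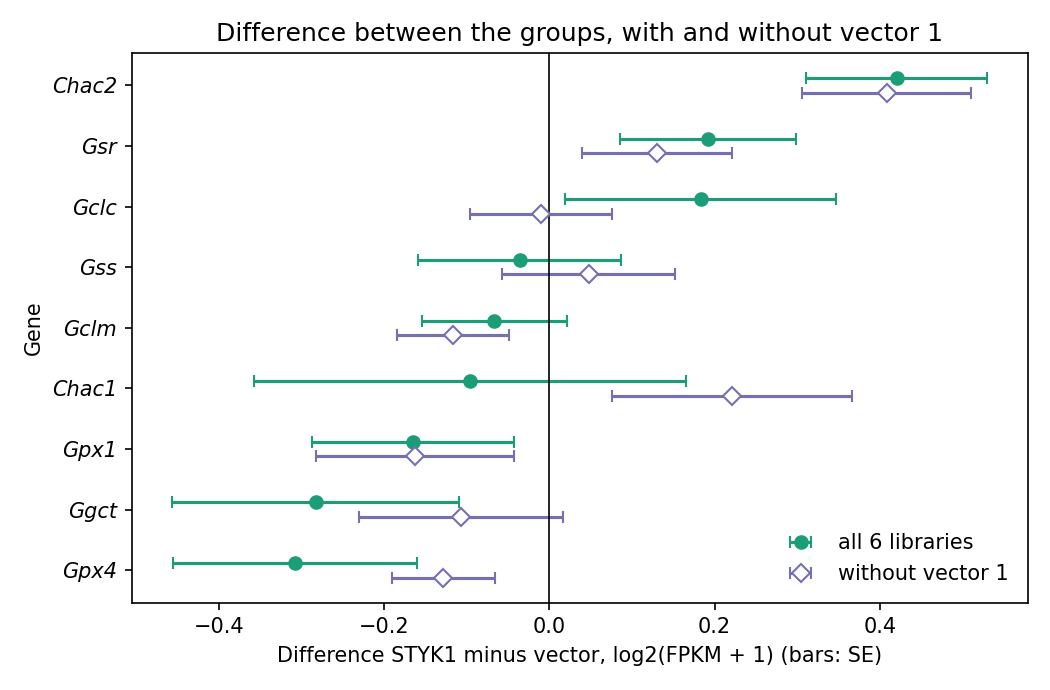
Difference between STYK1 and vector libraries for the 9 genes on the log2(FPKM + 1) scale, with SE bars, for all 6 libraries (filled circles) and without vector 1 (open diamonds). Chac2 stays near 0.42 and 0.41, while Gclc moves from 0.18 to -0.01, Chac1 from -0.10 to 0.22 and Gpx4 from -0.31 to -0.13.

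The genes of the family did not all move in the same direction from library to library. Relative to their own means over the 6 libraries, Chac1, Gpx4 and Ggct were at 0.68, 0.51 and 0.49 log2 units in vector 1, and Gclc and Gsr at -0.48 and -0.22. Thus 4 of the 9 genes had their highest value in vector 1 (Chac1, Ggct, Gpx4 and Gss) and 3 their lowest (Gclc, Gsr and Chac2), beside the 37.2% and 36.5% of all tested genes. The pair of libraries made up of vector 1 and STYK1 2 held the 2 highest values of Chac1 and Gss and the 2 lowest of Gclc, Gclm and Gsr. Over all tested genes, 15.6% had their 2 highest and 10.2% their 2 lowest values in that pair. The pair was noticed in these values and crosses the groups of the study, and what sets it apart was not tested.

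**Figure D3:**
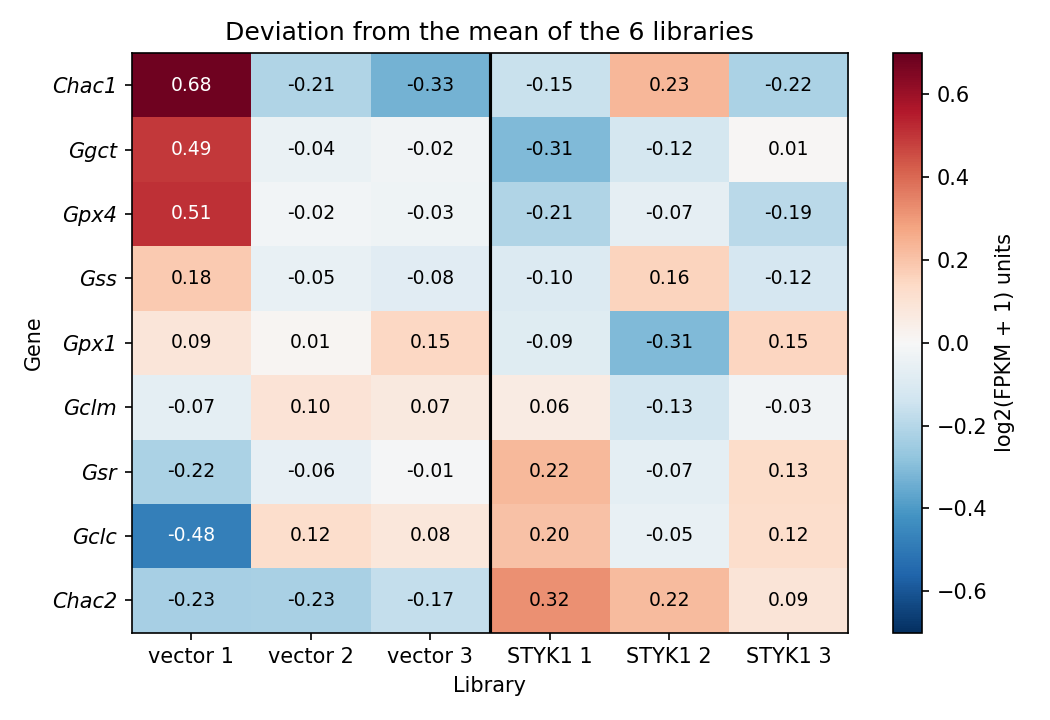
Deviation of each of the 9 genes (rows) from its own mean over the 6 libraries (columns), in log2(FPKM + 1) units, red above and blue below, with the vector libraries left of the black line. The first column holds the largest deviations, from 0.68 for Chac1 to -0.48 for Gclc, and the bottom row, Chac2, is the one that changes sign exactly at the line between the groups.

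Genes whose levels followed those of Chac2 most closely were sought among the 8123 tested genes that averaged 5 FPKM or more. By Pearson r on log2(FPKM + 1) over the 6 libraries, the nearest was Sfr1, of a complex for homologous recombination, with r = 0.99 and Spearman rho = 0.83. Then came the zinc finger gene Znf260 (r = 0.98, rho = 1) and Supt16h, a subunit of the histone chaperone FACT (r = 0.98, rho = 0.94). Resf1, a factor in the silencing of retroelements (r = 0.98, rho = 1), and Smc5, of the SMC5/6 complex (r = 0.97, rho = 1), completed the 5. They differed less between the groups than Chac2 did: Sfr1 averaged 64.2 ± 0.638 FPKM with the empty vector and 72.6 ± 2.19 FPKM with STYK1/NOK, and Smc5 16.6 ± 0.289 and 21.1 ± 0.374 FPKM (SD, n = 3 each). With 6 libraries, 102 of the 8123 genes reached an r over 0.9, so these names are a description with no p. Chac2 was chosen for higher values in STYK1 libraries, and much of its spread lay between the groups. A search for genes like it therefore favours genes higher in STYK1, and the 5 are no support for that difference.

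The remaining genes of glutathione and thiol metabolism were taken as 13 lists by role, in which 112 of 132 genes were matched and 98 tested. None passed the test across all genes (limma-trend, 0 of 98 at an adjusted p under 0.05). With an unadjusted p below 0.05 there were 0 higher and 14 (14.3%) lower in STYK1 libraries, against backgrounds of 4.95% and 4.88% of all tested genes. The groups did not overlap for 3 (3.06%) higher and 22 (22.4%) lower genes, against backgrounds of 13.6% and 9.44%. Their median log2 difference was -0.10, beside 0.01 for all tested genes. Without vector 1 there were 0 higher and 15 lower of 97 tested (backgrounds 4.91% and 4.57%) with a median of -0.07. The split depended on scaling: with equal FPKM sums 3 were higher and 4 lower (backgrounds 11.1% and 1.88%) and the median was 0.00053 beside 0.12 for all genes, and after quantile normalization 0 were higher and 7 lower (backgrounds 4.13% and 4.97%).

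**Figure D4:**
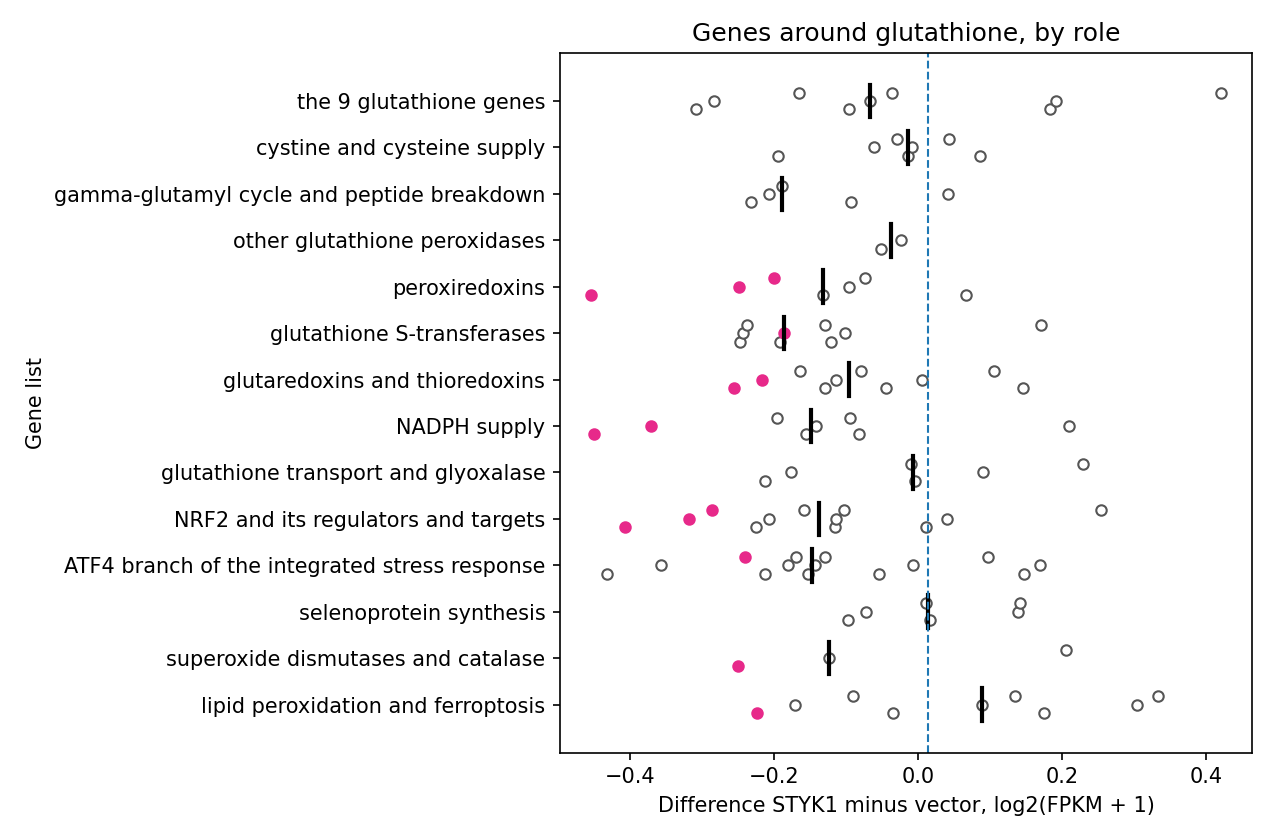
Log2 difference between STYK1 and vector libraries for the 9 glutathione genes and for the tested genes of the 13 lists; each circle is a gene, the black bar is the list's median and the dashed line the median of all tested genes, 0.01. Filled circles, marked for the 13 lists only, have an unadjusted p under 0.05 in limma-trend, and all 14 of them lie left of 0.

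Cysteine supply limits glutathione synthesis in many cells, and several genes of its known routes were near 0 here. Slc7a11, the cystine carrier of system xc-, was listed at 0.06 to 0.55 FPKM over the 6 libraries and was not tested. Cbs and Cth, the enzymes that make cysteine from homocysteine, reached at most 0.07 and 0.16 FPKM. Slc3a2, the heavy chain that pairs with Slc7a11 and with other carriers, lay at 85.2, 57.1 and 55.9 FPKM with the empty vector and at 58.6, 69.5 and 58.75 FPKM with STYK1/NOK, so its 2 highest libraries were again vector 1 and STYK1 2. Its log2 difference was -0.06 with all libraries and 0.13 without vector 1. Of the 7 tested genes of this list 0 had an unadjusted p under 0.05, and the smallest p was that of the glutamine carrier Slc1a5 (limma-trend, adjusted p = 0.484), whose log2 difference was -0.19 and -0.09 without vector 1. Ahcy, which yields homocysteine, and Mat2a, which makes S-adenosylmethionine, had log2 differences of -0.03 and 0.09, and Mat2a turned to -0.06 without vector 1.

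Outside the cell, glutathione is opened by gamma-glutamyl transferases and the product cut by dipeptidases. Ggt1, Ggt5 and Ggt6 reached at most 0.31 FPKM and were not tested, whereas Ggt7 averaged 9.14 ± 1.34 FPKM with the empty vector and 7.86 ± 0.583 FPKM with STYK1/NOK (SD, n = 3 each), a log2 difference of -0.19 that was -0.08 without vector 1. The dipeptidase gene Dpep1 was abundant, at 132 to 136 FPKM with the empty vector and at 121, 94.3 and 135 FPKM with STYK1/NOK. Of the 5 tested genes 0 had an unadjusted p under 0.05 (limma-trend), and the median log2 difference of -0.19 became -0.08 without vector 1 and -0.09 with equal FPKM sums. Lap3, a leucine aminopeptidase, and Oplah, which opens oxoproline, had log2 differences of -0.09 and -0.23. Oplah averaged 1.14 FPKM in vector libraries and did not pass the filter once vector 1 was left out.

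Among the other peroxidases of the Gpx family, the secreted Gpx3 lay at 129, 130.2 and 145 FPKM with the empty vector and at 137, 108 and 148 FPKM with STYK1/NOK. Gpx8, of the endoplasmic reticulum, lay at 67.4, 70.55 and 73.6 FPKM and at 66.6, 60.7 and 82.3 FPKM in the same order. As for Gpx1, STYK1 3 was the highest library and STYK1 2 the lowest for both genes, and their log2 differences were -0.05 and -0.02, and -0.08 and -0.06 without vector 1. Gpx2, Gpx6 and Gpx7 reached at most 0.41 FPKM.

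The list of the peroxiredoxins, which reduce peroxides through thioredoxin or glutathione, also held the sulfiredoxin gene Srxn1. It had 3 of 7 genes lower at an unadjusted p under 0.05 and 0 higher (limma-trend), and 5 of 7 with lower groups that did not overlap. The backgrounds were 4.88% and 9.44% of all tested genes, and Srxn1 was in neither count. The median log2 difference was -0.13 with and without vector 1, but -0.02 with equal FPKM sums and -0.04 after quantile normalization. Prdx5 lay at 70.0, 44.5 and 47.8 FPKM with the empty vector and at 34.8, 42.2 and 38.7 FPKM with STYK1/NOK, with a log2 difference of -0.45 ± 0.17 (SE; limma-trend, adjusted p = 0.469). Without vector 1 that difference was -0.26. Prdx6, which uses glutathione, averaged 143 ± 10.1 FPKM against 124 ± 3.04 FPKM, and Prdx2 296 ± 39.5 FPKM against 248 ± 10.4 FPKM (SD, n = 3 each). For Prdx2 the log2 difference of -0.25 became -0.14 without vector 1. Prdx4, of the endoplasmic reticulum, averaged 158 ± 1.53 FPKM against 145 ± 11.3 FPKM.

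Glutathione S-transferases join glutathione to other molecules. Gstp1 was by far the most abundant gene of this list, with 4465, 3638 and 3532 FPKM with the empty vector and 3117, 3218 and 3426 FPKM with STYK1/NOK. Its groups did not overlap, with a log2 difference of -0.25 ± 0.11 (SE; limma-trend, adjusted p = 0.469) and of -0.14 without vector 1. The microsomal Mgst1 lay at 561, 527 and 536 FPKM with the empty vector and at 476, 476 and 475 FPKM with STYK1/NOK (limma-trend, adjusted p = 0.469). Mgst3 and Gstz1 had log2 differences of -0.24 and -0.19, and of -0.13 and -0.12 without vector 1. Of 9 tested genes 1 was lower (2 without vector 1) and 0 higher below an unadjusted p of 0.05. The shares of all tested genes were 4.88% lower (4.57% without vector 1) and 4.95% higher. The list's median log2 difference was -0.19, and it was -0.09 without vector 1 and -0.07 with equal FPKM sums. Of the 21 listed, 10 were not matched. No source used here says how reads shared between similar family members were assigned, so single values of the Gstm and peroxiredoxin genes are uncertain.

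For the reduction of thiols, 2 of 10 tested glutaredoxin and thioredoxin genes were lower below an unadjusted p of 0.05 (limma-trend) and 0 were higher. The shares of all tested genes were 4.88% lower and 4.95% higher. The list's median log2 difference was -0.10, but -0.01 without vector 1 and 0.02 with equal FPKM sums. Glrx5, which serves mitochondrial iron-sulfur cluster assembly, averaged 345 ± 31.9 FPKM with the empty vector and 288 ± 6.24 FPKM with STYK1/NOK, and the mitochondrial thioredoxin Txn2 77.0 ± 3.11 FPKM and 66.1 ± 2.15 FPKM (SD, n = 3 each). Glrx, the cytosolic glutaredoxin, averaged 421 ± 10.9 FPKM and 376 ± 15.8 FPKM, with groups that did not overlap, and Txnrd3, a thioredoxin reductase, had a log2 difference of 0.15. Of the 8 genes that supply the NADPH used by Gsr, 2 were lower and 0 higher by that threshold. Idh1, the cytosolic isocitrate dehydrogenase, lay at 94.4, 86.4 and 73.85 FPKM with the empty vector and at 65.9, 66.4 and 63.2 FPKM with STYK1/NOK. Its log2 difference was -0.37 ± 0.10 (SE; limma-trend, adjusted p = 0.469), and -0.29 without vector 1. Pgls, of the pentose phosphate pathway, averaged 58.7 ± 14.7 FPKM against 41.9 ± 1.60 FPKM, with vector 1 at 75.0 FPKM, and its log2 difference of -0.45 became -0.26 without that library. Tkt and Idh2 had log2 differences of -0.20 and -0.16, and that of Tkt was -0.12 without vector 1.

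The transcription factor NRF2, encoded by Nfe2l2, drives Gclc, Gclm, Gsr and many detoxifying genes in other systems, and KEAP1 holds it back. Nfe2l2 lay at 159 to 182 FPKM in vector and 173 to 177 FPKM in STYK1 libraries, with a log2 difference of 0.04 that was -0.01 without vector 1. Among 12 tested genes of its list, 0 were higher and 3 lower below an unadjusted p of 0.05 (limma-trend): the ferritin light chain Ftl, Osgin1 and the heme oxygenase Hmox1. The shares of all tested genes were 4.95% higher and 4.88% lower. The list's median log2 difference was -0.14, and it was -0.10 without vector 1 and -0.03 with equal FPKM sums. Ftl lay at 797, 577 and 588 FPKM with the empty vector and at 452, 527 and 488 FPKM with STYK1/NOK (log2 difference -0.41, and -0.26 without vector 1). Hmox1 lay at 60.8, 64.5 and 56.9 FPKM and at 49.3, 57.7 and 42.9 FPKM in the same order, with a log2 difference of -0.29, of -0.28 without vector 1, and overlapping groups. For Osgin1 the difference was -0.32, and -0.20 without vector 1. Bach1, a repressor of such genes, averaged 27.1 ± 4.45 FPKM with the empty vector and 32.3 ± 1.38 FPKM with STYK1/NOK (SD, n = 3 each), with groups that did not overlap. Its lowest library was vector 1, and its log2 difference of 0.25 became 0.12 without it. Ftl, Osgin1 and Hmox1 were named because they passed that threshold. Their differences beside those of Gclc, Gclm and Gsr are therefore no comparison of NRF2 targets, and a role of NRF2 was not tested.

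ATF4 drives Chac1 under stress in other systems. Atf4 lay at 346, 266 and 257 FPKM with the empty vector and at 236, 263 and 244 FPKM with STYK1/NOK, and like Chac1, and 37.2% of all tested genes, it was highest in vector 1. Its log2 difference was -0.21, and -0.08 without vector 1. Of 14 tested genes of that branch, Ddit4, Ppp1r15a and Atf3 shared with Chac1 the pair of vector 1 and STYK1 2 as highest libraries, and Psat1, Vldlr and Aldh18a1 had the same pair as lowest. These are 21.4% of the 14 in each case, beside 15.6% and 10.2% of all tested genes. Ddit4 was listed at 92.1, 45.9 and 38.7 FPKM with the empty vector and at 36.2, 57.4 and 37.0 FPKM with STYK1/NOK. These genes were named after their values had been seen. Only Phgdh, of serine synthesis, was lower at an unadjusted p under 0.05 (51.4 ± 3.45 FPKM against 43.3 ± 1.21 FPKM, SD, n = 3 each; limma-trend, adjusted p = 0.469), and 0 genes were higher. The shares of all tested genes were 4.88% lower and 4.95% higher. Trib3 and Eif2ak4 had log2 differences of -0.43 and 0.15, and of -0.28 and 0.09 without vector 1.

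Gpx1 and Gpx4 need the machinery that inserts selenocysteine. Of the 6 tested genes for it, 0 had an unadjusted p under 0.05 (limma-trend), and the median log2 difference was 0.01, beside 0.04 without vector 1, 0.10 with equal FPKM sums and -0.06 after quantile normalization. Sephs1, Pstk, Sephs2 and Scly had differences of 0.14, 0.14, -0.10 and -0.07. Without vector 1 those of Sephs1 and Pstk were 0.08 each and that of Scly turned to 0.07. Eefsec, the elongation factor that delivers selenocysteine, was not tested because of its low level. Its vector libraries were listed at 0.34, 0.55 and 0.56 FPKM, all 3 STYK1 libraries at 0, and it is named after its values were seen. No fold is given for a gene listed at 0 in a file without counts.

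In the last 3 lists, the mitochondrial glutathione carrier Slc25a39 averaged 161 ± 21.8 FPKM with the empty vector and 138 ± 5.48 FPKM with STYK1/NOK, and the glutathione conjugate exporter Abcc1 7.91 ± 0.673 FPKM and 9.47 ± 1.24 FPKM (SD, n = 3 each). The log2 difference of Slc25a39 was -0.21, and -0.10 without vector 1. Hagh and Glo1, the glyoxalases, had log2 differences of -0.18 and 0.09, and of -0.09 and 0.04 without vector 1, and no gene of the carrier list had an unadjusted p under 0.05 (limma-trend, 0 of 6). Sod1, the cytosolic superoxide dismutase, lay at 432, 377 and 381 FPKM with the empty vector and at 329, 320.3 and 349.9 FPKM with STYK1/NOK (limma-trend, adjusted p = 0.469), while Sod2 and Cat had log2 differences of -0.12 and 0.20. Vector 1 was the lowest library for Cat, whose difference was 0.07 without it. Of the genes of lipid peroxidation, which Gpx4 counters, Acsl4, the ligase that primes polyunsaturated fatty acids, lay at 73.8, 109 and 106 FPKM with the empty vector and at 120.2, 116 and 116 FPKM with STYK1/NOK. Its groups did not overlap, but its log2 difference of 0.30 became 0.12 without vector 1, the lowest library. Lpcat3, which loads such fatty acids into phospholipids, averaged 81.8 ± 6.83 FPKM with the empty vector and 69.9 ± 4.50 FPKM with STYK1/NOK (limma-trend, adjusted p = 0.469). Tfrc and Pebp1 had log2 differences of 0.33 and -0.17, and that of Tfrc was 0.05 without vector 1.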

How the data were processed

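The 6 libraries were made from 1 ug of total RNA each with an Illumina TruSeq kit, per the labels' protocols. The authors deposited a table of FPKM for each library, per the file headers. The submitters' processing notes list Bowtie 0.12.2, mm8 and mm9 (mouse builds) without saying what each served for. The tool behind FPKM, its annotation and its use of strand: not given in the sources used here. IDs were named through the RefSeq gene table of BCM_Maur_2.0 (15049 of 16078 matched), used for names only, so no coordinates are given.

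The test was limma-trend with robust empirical Bayes (limma 3.58.1, R 4.3.3) on log2(FPKM + 1), without further scaling, adjusted by Benjamini and Hochberg over 11464 genes. It was also run on simulated data with the same spread for all genes and libraries. That run held no library like vector 1, so it does not cover such data. Total reads are unknown, so no counting interval is given. Relative depth was the most frequent ratio over genes at 0.8 to 6 FPKM (bandwidth 0.005). Named genes were all members, up to 4 of smallest p in each list, genes needed to introduce a list, and the 5 most like Chac2. Nfe2l2, the untested genes near 0 (Slc7a11, Cbs, Cth, Ggt1, Ggt5, Ggt6, Gpx2, Gpx6 and Gpx7) and those marked in the text were named after their values were seen. Members and lists were chosen with earlier results of these data known. Alternatives covered pseudocounts of 0.1 and 0.5, no filter, 3 scalings, library weights, a replicate block and leaving out each library.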

Additional observations from a re-analysis of the deposited data

How the results depend on the processing

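The direction of Chac2, Gsr, Gpx1, Gpx4 and Ggct was the same in all 14 alternatives, with Chac2 between 0.36 (quantile normalization) and 0.52 (equal FPKM sums). With equal FPKM sums, 6 of the 9 genes lay above 0 with a median of 0.044, beside 70.5% of all tested genes above 0. In that setting 3 genes of the 13 lists were higher and 4 lower at an unadjusted p under 0.05. After quantile normalization the median of the 9 was -0.00040 and 7 listed genes were lower. Library weights, which gave vector 1 a weight of 0.129, called 24 genes (smallest adjusted p = 0.0152, limma-trend), 0 of the 9 and 0 of the listed genes among them. They put 2365 of all 11464 tested genes at an unadjusted p under 0.05, 1202 higher and 1163 lower. In the lists 2 of 98 were higher and 28 lower. The split of all genes at that threshold was 568 higher and 560 lower, 1269 and 216 with equal FPKM sums and 402 and 762 after median centring.

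Leaving out 1 library at a time gave 0 to 2 genes called (2 without vector 3, without STYK1 1 and without STYK1 3, with 0 of the 9 among them). It gave 354 (without STYK1 1) to 1712 (without vector 3) at an unadjusted p under 0.05. At that threshold 0 to 2 listed genes were higher, with 2 without vector 2, where 786 of all tested genes were higher. Lower were 1 (without STYK1 1) to 17 (without vector 3), where 189 and 808 of all tested genes were lower. Of the 9 genes 3 to 4 lay above 0, with a median of -0.084 to -0.0097. Whether the numbers 1 to 3 pair the libraries is not known. Deviations of same-numbered libraries from their group means correlated at -0.27, -0.16 and 0.11, which does not show how the libraries were prepared. The replicate block called 0 genes and left 831 genes at an unadjusted p under 0.05 (450 higher and 381 lower), with 5 listed genes lower.

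Of 49 named list genes, 9 changed sign in some alternative, all with adjusted p over 0.5. With equal FPKM sums these were Ahcy (0.082), Slc3a2 (0.050), Lap3 (0.017), Gpx3 (0.059), Gpx8 (0.086), Sephs2 (0.012) and Scly (0.035). After quantile normalization Ahcy (0.063), Gpx3 (0.033), Gpx8 (0.022) and Sod2 (0.095) did, and with library weights Mat2a (-0.021), Slc3a2 (0.063) and Gpx3 (0.0061). Leaving out 1 library gave ranges of -0.17 to 0.13 for Slc3a2, -0.058 to 0.17 for Mat2a, -0.068 to 0.016 for Ahcy, -0.14 to 0.077 for Gpx3, -0.15 to 0.070 for Gpx8 and -0.19 to 0.068 for Scly. The cause of these shifts was not tested. Absolute depth is unknown, so it cannot be said how far counting error limits genes of low FPKM such as Eefsec.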
